A study of Mus musculus with 10 samples.

Results

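The guanylate-binding proteins (GBPs) of the mouse are encoded by a family of interferon-inducible genes, and the 10 rows of the deposited expression table named *Gbp2*, *Gbp2b*, *Gbp3*, *Gbp4*, *Gbp5*, *Gbp6*, *Gbp7*, *Gbp8*, *Gbp9* and *Gbp10* are described here, out of 54532 genes in the table. The rows were picked by gene name, but the family was chosen with earlier results of these data known. RNA-seq was done on neural retinas of 2-month-old BALB/c mice, an albino strain whose eyes have no melanin to screen out light. After 12 hr of dark adaptation, the mice of both groups spent 1 day under either normal light of 200 lux (NL, 5 retinas) or high-intensity light of 15000 lux, which causes light damage (LD, 5 retinas). No allele, transgene or drug was part of either group, and whole neural retinas were sequenced, so that every value is a sum over all the cell types present. The comparison asks how the transcript levels of the family differed between light-damaged and normally lit retinas.

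GBPs are large GTPases of the dynamin superfamily that bind and hydrolyse guanine nucleotides and assemble on membranes. Interferon-γ is their best-known inducer and acts in part through the transcription factor IRF1, and type I interferons induce them as well. In infected cells the proteins coat vacuoles and bacteria, open them, and help cytosolic DNA or lipopolysaccharide reach the inflammasome, the protein platform that activates inflammatory caspases.

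Between 21343389 and 26832535 reads were recovered for an NL retina, and between 18965090 and 23378090 for an LD retina. *Xist*, the RNA that coats the inactive X chromosome of females, had 57965 reads or more in NL-4, NL-8, LD-4 and LD-6, which is 2 of the 5 retinas in each group, and at most 43 reads in the others. The reads of LD-4 and LD-6, of NL-5 and NL-7 and of LD-1 and LD-7 were closer to each other, with a chi-square per gene of 2.52 to 3.41, than those of any other pair within a group, for which the lowest value was 10.9. Of the rod photoreceptor markers examined, all 8 were called lower after LD, and their summed level ranged from 8450 to 10317 FPKM (fragments per kilobase of gene length, relative to the size of the library) under NL and from 1219 to 2515 FPKM after LD. The labelled tissue was therefore recognisable by its rod genes in both groups. In bulk tissue, fewer cells of a type and less RNA per cell cannot be told apart, and neither can more GBP-expressing cells and more GBP mRNA per cell.

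The members lie in 2 gene clusters (GRCm38). On the plus strand of chromosome 3, a cluster of 144 kb at chr3:142493978-142638008 holds *Gbp5* (ENSMUSG00000105504), *Gbp7* (ENSMUSG00000040253), *Gbp3* (ENSMUSG00000028268), *Gbp2b* (ENSMUSG00000040264) and *Gbp2* (ENSMUSG00000028270), in this order. The space between neighbours there was 1.42 kb from *Gbp2b* to *Gbp2* and at most 21.6 kb, from *Gbp3* to *Gbp2b*. On the minus strand of chromosome 5, a cluster at chr5:105014150-105293698 holds *Gbp8* (ENSMUSG00000034438), *Gbp9* (ENSMUSG00000029298), *Gbp4* (ENSMUSG00000079363), *Gbp10* (ENSMUSG00000105096) and *Gbp6* (ENSMUSG00000104713). Here *Gbp8*, *Gbp9* and *Gbp4* overlap, with starts of transcription that lie close together, while 76.1 kb separate *Gbp4* from *Gbp10* and 31.2 kb separate *Gbp10* from *Gbp6*. All 10 are annotated as protein-coding.

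The promoters of the chromosome 3 genes are shown because all of these genes were higher after LD and because interferon-responsive elements near the start of GBP genes are well known. The RefSeq table (GRCm38.p6) held promoters for 5 of the 10 members, each running from 250 bases before to 50 bases after the start of transcription, and the printed stretch ends early so that little of the first exon is included. Capitals mark matches on either strand to GAAANNGAA, the core of the interferon-stimulated response element (ISRE), here printed as its reverse complement because every match lay on the other strand, and to TTCNNNGAA, the γ-activated site (GAS).
*Gbp5* promoter, chr3:142496684-142496929, strand +: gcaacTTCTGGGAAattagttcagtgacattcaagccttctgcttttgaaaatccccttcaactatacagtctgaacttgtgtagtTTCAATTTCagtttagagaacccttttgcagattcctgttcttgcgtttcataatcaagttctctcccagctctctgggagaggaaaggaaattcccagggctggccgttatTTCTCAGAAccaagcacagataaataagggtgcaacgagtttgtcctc
*Gbp7* promoter, chr3:142530086-142530335, strand +: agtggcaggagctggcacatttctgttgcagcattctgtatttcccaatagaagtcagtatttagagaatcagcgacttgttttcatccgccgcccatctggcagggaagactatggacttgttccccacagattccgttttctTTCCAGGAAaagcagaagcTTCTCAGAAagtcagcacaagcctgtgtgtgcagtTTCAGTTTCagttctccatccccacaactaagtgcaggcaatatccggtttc
*Gbp3* promoter, chr3:142559794-142560043, strand +: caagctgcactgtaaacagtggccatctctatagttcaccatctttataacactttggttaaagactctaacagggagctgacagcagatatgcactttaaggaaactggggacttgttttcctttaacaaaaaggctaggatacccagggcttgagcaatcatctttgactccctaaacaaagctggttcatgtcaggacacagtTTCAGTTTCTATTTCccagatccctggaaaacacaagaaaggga
*Gbp2b* promoter, chr3:142594597-142594846, strand +: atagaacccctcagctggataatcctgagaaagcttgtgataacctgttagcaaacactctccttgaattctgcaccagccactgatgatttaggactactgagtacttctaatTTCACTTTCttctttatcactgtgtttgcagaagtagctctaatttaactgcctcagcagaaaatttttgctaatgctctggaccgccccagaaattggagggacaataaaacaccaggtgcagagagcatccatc
*Gbp2* promoter, chr3:142620413-142620631, strand +: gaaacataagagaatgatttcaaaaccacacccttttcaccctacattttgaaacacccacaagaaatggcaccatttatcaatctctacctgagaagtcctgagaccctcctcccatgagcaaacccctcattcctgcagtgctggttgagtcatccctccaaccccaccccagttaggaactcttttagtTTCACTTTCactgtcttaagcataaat

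An ISRE core was found in the window printed for all 5 genes. In the RefSeq table, 9.76% of the 27025 genes had a core in any of their promoters, and 8.56% of the 32851 promoters held one. Positions are given in bases from the start of transcription, negative before it. In *Gbp7*, *Gbp3* and *Gbp2*, whose transcripts were the most abundant of the family in LD retinas, the core began at -52, -44 and -58. *Gbp3* held a second core from -38 to -30, which overlaps the first. In *Gbp5* and *Gbp2b* the core began farther upstream, at -164 and -136. The GAS, present in 8.30% of all promoters, was matched at -245 and -52 in *Gbp5* and at -106 and -87 in *Gbp7*. Only 1.07% of all promoters held both motifs, and no ISRE match printed here overlapped a GAS match. A further RefSeq start of *Gbp3* downstream had neither motif in its window. *Gbp4*, *Gbp6*, *Gbp8*, *Gbp9* and *Gbp10* had no entry. These are matches of letters, and binding was not measured.

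After LD, all 10 members were called higher, where 6.51% of the 24508 genes tested were called changed and 4.13% were called higher (limma on log2(FPKM + 0.1), Benjamini-Hochberg adjusted p below 0.01 together with more than a 2-fold change). Each LD retina was above each NL retina for all 10 members, as it was for 11.8% of all genes tested. The summed level of the family lay between 2.27 and 4.52 FPKM under NL and between 60.5 and 65.4 FPKM after LD (mean 3.15 ± 0.896 and 63.3 ± 2.23, SD, n = 5 each). The median log2 fold change of the members was 3.48, and that of all genes tested was -0.01. An exact two-sided permutation test over the 10 retinas gave p = 0.00794 for each member, which is the smallest value that 5 against 5 samples allow. *Gbp2*, *Gbp3*, *Gbp5*, *Gbp7* and *Gbp9* would have passed the filter on low values with the NL retinas alone, whereas the other 5 members passed it through the LD retinas and so were bound to be higher there.

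*Gbp7*, *Gbp3* and *Gbp2* had the highest mean levels after LD. *Gbp7*, whose product has been linked to the assembly of the NADPH oxidase and to defence against intracellular bacteria, was at 1.12, 0.839, 0.755, 0.856 and 1.07 FPKM in NL-1, NL-4, NL-5, NL-7 and NL-8, and at 11.8, 22.0, 22.5, 13.1 and 17.1 FPKM in LD-1, LD-4, LD-6, LD-7 and LD-8. Values are given in the same order of retinas below. The NL retinas were close to each other, while LD-4 and LD-6 stood above the other LD retinas. The mean rose from 0.927 ± 0.157 to 17.3 ± 4.91 FPKM (SD, n = 5 each), 18.7-fold, with a log2 fold change of 4.05 ± 0.19 (SE; limma, adjusted p = 2.14e-07).

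*Gbp3* was at 0.687, 0.404, 0.573, 0.274 and 0.416 FPKM under NL and at 14.5, 16.7, 16.6, 16.6 and 14.6 FPKM after LD. Among the members it had the narrowest spread between LD retinas, the highest being 1.15 times the lowest, and its lowest LD retina was 21.1 times its highest NL retina. The mean rose from 0.471 ± 0.161 to 15.8 ± 1.14 FPKM, 33.6-fold. The log2 fold change of 4.84 ± 0.18 (SE; limma, adjusted p = 4.19e-08) was the largest fitted value of the family and ranked 18 among all genes tested. That first place depends on the added 0.1. The ratio of means was higher for *Gbp10*, 37.9, and for *Gbp2b*, 105, the latter from a single NL read. By limma-voom on the recovered reads, *Gbp10* was at 5.38 and *Gbp3* at 5.12.

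*Gbp2*, which encodes a lipid-anchored GBP that coats the vacuole of *Toxoplasma*, was at 1.23, 0.617, 0.724, 0.356 and 0.740 FPKM under NL and at 13.8, 9.92, 12.2, 12.4 and 16.0 FPKM after LD. NL-1 was the highest of its group, and the lowest LD retina was 8.09 times NL-1. The mean rose from 0.733 ± 0.316 to 12.9 ± 2.24 FPKM, 17.6-fold, with a log2 fold change of 4.03 ± 0.24 (SE; limma, adjusted p = 1.37e-06).

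*Gbp5* encodes another lipid-anchored GBP, known as an activator of the NLRP3 and AIM2 inflammasomes. It was at 0.247, 0.113, 0.171, 0.149 and 0.210 FPKM under NL and at 3.55, 1.63, 1.93, 3.08 and 4.14 FPKM after LD. LD-4 and LD-6 were the lowest LD retinas here, the reverse of their place for *Gbp7*. The mean rose from 0.178 ± 0.0520 to 2.87 ± 1.07 FPKM, 16.1-fold, with a log2 fold change of 3.35 ± 0.27 (SE; limma, adjusted p = 8.46e-06).

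*Gbp2b*, the mouse gene formerly called *Gbp1*, was near the limit of detection under NL. A single read in NL-1 and none in the other 4 NL retinas were recovered, against 9 to 42 reads per LD retina. The LD values were 0.363, 0.157, 0.253, 0.296 and 0.668 FPKM, the widest relative spread of the family, with the highest 4.25 times the lowest. Scaled by library size, the 111 LD reads against 1 NL read gave a ratio of 109 with an exact 95% interval of 19.1 to 4340, which covers counting error only. The fitted log2 fold change of 2.02 ± 0.27 (SE; limma, adjusted p = 3.14e-04) depends on the constant of 0.1 added to each value and is no bound on the change.

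**Figure D1:**
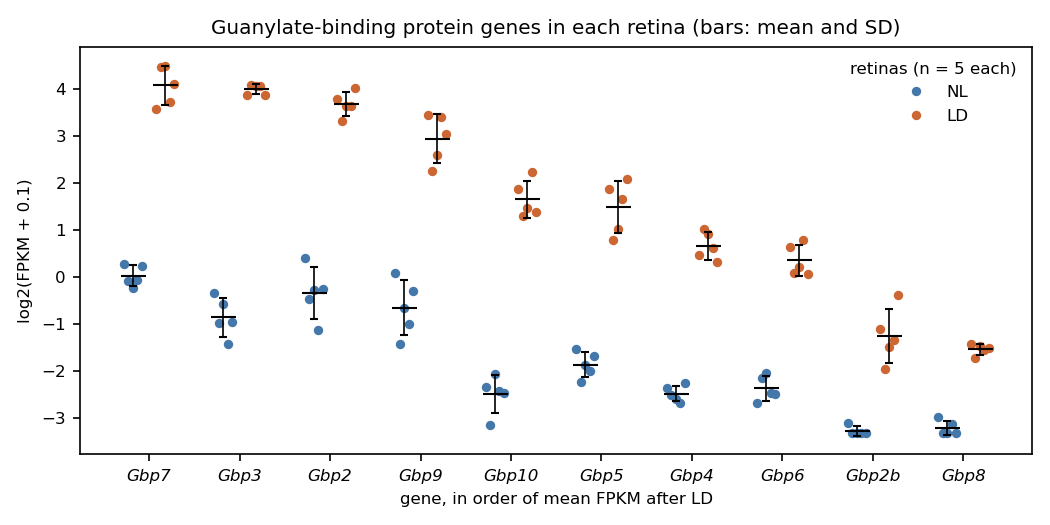
Log2(FPKM + 0.1) of the 10 GBP genes (x axis, in order of the mean after LD) in each NL retina (blue) and LD retina (orange), with the mean and SD of each group of 5 as bars. For every gene the LD points lie above the NL points, and *Gbp2b* and *Gbp8* have 1 and 3 reads in all NL retinas together.

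In the chromosome 5 cluster, *Gbp9* had the highest level. It was at 0.958, 0.273, 0.533, 0.401 and 0.712 FPKM under NL and at 10.7, 4.63, 5.95, 10.5 and 8.10 FPKM after LD. LD-4 and LD-6 were again the lowest LD retinas, and of all members *Gbp9* had the smallest gap between the groups, with the lowest LD retina 4.84 times the highest NL retina. The mean rose from 0.575 ± 0.269 to 7.98 ± 2.70 FPKM, 13.9-fold, with a log2 fold change of 3.60 ± 0.31 (SE; limma, adjusted p = 1.66e-05).

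*Gbp10* and *Gbp6* are near-identical over much of their transcripts. *Gbp10* was at 0.0966, 0.0122, 0.140, 0.0851 and 0.0801 FPKM under NL and at 3.57, 2.37, 2.65, 4.58 and 2.52 FPKM after LD, which rest on 1 to 11 and 186 to 404 reads per retina. *Gbp6* was at 0.0550, 0.127, 0.141, 0.0791 and 0.0781 FPKM under NL and at 1.45, 0.961, 1.06, 1.62 and 0.943 FPKM after LD. For both genes LD-7 was the highest and LD-1 the next highest retina. The ratio of means was 37.9 for *Gbp10* and 12.6 for *Gbp6*. The log2 fold change was 4.14 ± 0.25 for *Gbp10* (SE; limma, adjusted p = 1.26e-06) and 2.73 ± 0.21 for *Gbp6* (SE; limma, adjusted p = 7.20e-06). How the reads were divided between them is uncertain, since 66.6% of the 150-base windows of *Gbp10* transcripts and 59.1% of those of *Gbp6* also occur in each other or in *Gm43302*, a gene model that spans both. Reads counted for *Gm43302* itself numbered 0 to 2 per retina under NL and 3 to 15 after LD. *Gbp7* shared 8.77% of its windows with a pseudogene, *Gm43802*, that was listed at 0 in all retinas, *Gbp4* shared 0.0254%, with *Gbp11*, and the other 6 members shared none.

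*Gbp4* was at 0.0936, 0.0754, 0.0657, 0.0566 and 0.109 FPKM under NL and at 1.28, 1.93, 1.77, 1.42 and 1.15 FPKM after LD. As for *Gbp7*, the highest LD retinas were LD-4 and LD-6. The mean rose from 0.0800 ± 0.0211 to 1.51 ± 0.333 FPKM, 18.9-fold, with a log2 fold change of 3.14 ± 0.18 (SE; limma, adjusted p = 1.10e-06). *Gbp8* had 3 reads in all NL retinas together and 14 to 23 reads in each LD retina. Its LD values of 0.274, 0.201, 0.260, 0.242 and 0.248 FPKM made it the lowest member after LD. The ratio of its scaled reads was 31.1 with an exact 95% interval of 10.3 to 153, and the fitted log2 fold change was 1.68 ± 0.16 (SE; limma, adjusted p = 3.62e-05). As for *Gbp2b*, that fitted value depends on the added 0.1. *Gbp4*, *Gbp8* and *Gbp9* share 60 or 61 exon bases at their common 5′ end, at most 1.77% of the exon length of any of them.

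The order of the mean FPKM after LD was *Gbp7*, *Gbp3*, *Gbp2*, *Gbp9*, *Gbp10*, *Gbp5*, *Gbp4*, *Gbp6*, *Gbp2b* and *Gbp8*. Between neighbours in this order, the ranges over the LD retinas were separate only from *Gbp9* to *Gbp10* and from *Gbp6* to *Gbp2b*, and overlapped for the others. Within retinas, *Gbp2* was nevertheless above *Gbp9* in 5 of 5 LD retinas, whereas *Gbp7* was above *Gbp3*, *Gbp4* above *Gbp6* and *Gbp2b* above *Gbp8* in 3 of 5. Under NL the order was *Gbp7*, *Gbp2*, *Gbp9*, *Gbp3*, *Gbp5*, *Gbp6*, *Gbp10*, *Gbp4*, *Gbp8* and *Gbp2b*, with separate ranges from *Gbp3* to *Gbp5* and from *Gbp4* to *Gbp8*. In both groups, then, *Gbp7*, *Gbp3*, *Gbp2* and *Gbp9* came first. Together these 4 genes made up 83.1 to 88.2% of the family's summed FPKM under NL, a share that was 82.4 to 88.0% after LD.

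**Figure D2:**
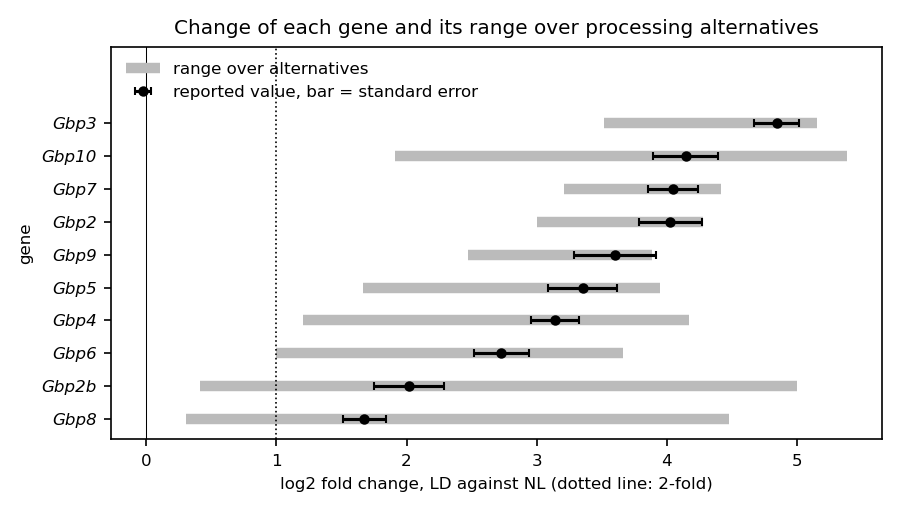
Log2 fold change, LD against NL, of each GBP gene (point) with its standard error (bar) and the range over all processing alternatives (grey). Of the points, that of *Gbp3* is the highest, 4.84, while the range of *Gbp10* reaches higher than that of *Gbp3*. Only *Gbp6*, *Gbp2b* and *Gbp8* reach below the dotted line of a 2-fold change under an alternative.

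Although the summed level of the family varied little between LD retinas, its composition did. *Gbp7* was 1.11, 4.74, 3.78, 1.25 and 2.11 times *Gbp9* in LD-1, LD-4, LD-6, LD-7 and LD-8. The retinas with *Xist* reads, LD-4 and LD-6, were above the other 3 LD retinas for *Gbp7* and *Gbp4* and below them for *Gbp2*, *Gbp2b*, *Gbp5* and *Gbp9*. The ranges overlapped for *Gbp3*, *Gbp6*, *Gbp8* and *Gbp10*. LD-4 and LD-6 also form the closest pair of libraries, so the presence of *Xist* and whatever else these retinas share cannot be told apart. In a test of whether the LD effect differed with the presence of *Xist*, no member passed an adjusted p of 0.05 (limma interaction), although 249 of the 24508 genes did. Without adjustment 1 member had p under 0.05, where 15.1% of all genes tested did. That member was *Gbp5*, whose log2 fold change differed by -0.82 ± 0.36 (with minus without *Xist*, SE; limma, adjusted p = 0.331). The largest difference in the other direction was that of *Gbp7*, 0.61 ± 0.27 (SE; limma, adjusted p = 0.341). All 10 members were called in the 6 retinas without *Xist*, and 5 members, *Gbp2*, *Gbp3*, *Gbp4*, *Gbp7* and *Gbp10*, in the 4 retinas with it.

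**Figure D3:**
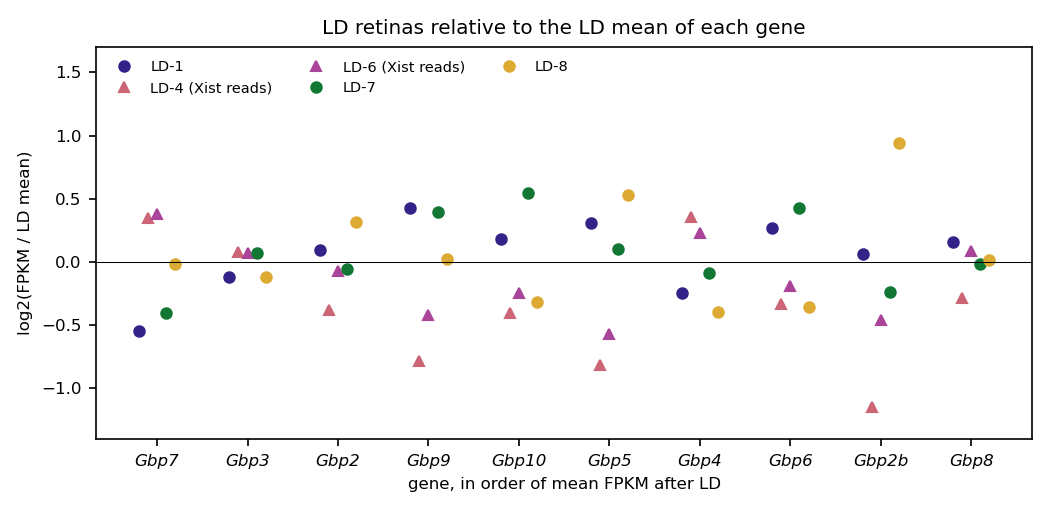
Log2 ratio of the FPKM in each of the 5 LD retinas to the LD mean of that gene, for the GBP genes in order of their mean after LD, with the retinas that hold *Xist* reads, LD-4 and LD-6, as triangles. These retinas lie at the top for *Gbp7* and *Gbp4* and at the bottom for *Gbp2*, *Gbp2b*, *Gbp5* and *Gbp9*.

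The median log2 fold change was 4.03 for the 5 genes on chromosome 3 and 3.14 for the 5 genes on chromosome 5. The ranges of 2.02 to 4.84 and 1.68 to 4.14 overlap widely. The difference between the medians depends on the added 0.1. *Gbp2b* on chromosome 3 and *Gbp4*, *Gbp6*, *Gbp8* and *Gbp10* on chromosome 5 passed the filter on low values through the LD retinas. Both medians therefore partly follow from the filter. By limma-voom on the recovered reads, the middle gene was *Gbp2* at 4.21 on chromosome 3 and *Gbp4* at 4.17 on chromosome 5. The 12 nearest protein-coding genes that were tested, 3 on each side of each cluster, were not called by limma or by limma-voom on the recovered reads, and 3 of them had an unadjusted p under 0.05, where 38.2% of all genes tested did. With 6.51% of all genes called, a count of 0 of 12 is near the background and sets these neighbours apart from no other genes. *Pdlim5*, 98.3 kb before the chromosome 3 cluster, had a log2 fold change of -0.03 ± 0.10 (SE), and *Kyat3*, 63.0 kb after it, 0.26 ± 0.15. *Lrrc8b*, 122 kb after the chromosome 5 cluster, fell by 0.55 on the log2 scale (limma, adjusted p = 2.29e-04), while *Lrrc8c*, the next gene on that side at 226 kb, had the largest difference of the 12 and was higher by 0.79 ± 0.17 (SE; limma, adjusted p = 0.00513), both under 2-fold. Next to *Gbp6*, at chr5:105323042-105346472, lies *Gbp11*, annotated as a polymorphic pseudogene and not counted among the members. It had 4 reads in all NL retinas together and 66 to 96 reads in each LD retina, and its mean after LD was 1.42 ± 0.218 FPKM (SD, n = 5). The other named relative in the table, the pseudogene *Gbp2-ps*, was listed at 0 in all 10 retinas.

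**Figure D4:**
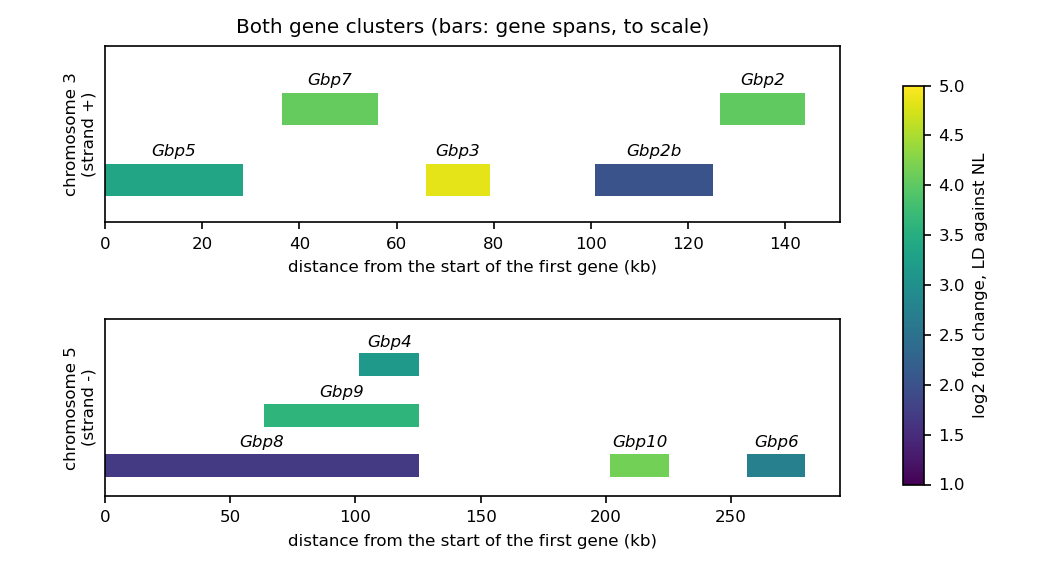
Spans of the GBP genes in the chromosome 3 and chromosome 5 clusters, to scale in kb from the start of the first gene, coloured by log2 fold change, LD against NL. High and low values lie side by side in both clusters, as for *Gbp3* (4.84) and *Gbp2b* (2.02).

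Among genes of interferon signalling, which induces GBPs, 12 of the 22 tested were called higher and none lower, with a median log2 fold change of 1.23. *Ifnlr1*, *Nlrc5* and *Batf2* passed the filter on low values through the LD retinas, and among the 19 genes that passed it with the NL retinas alone 9 were higher. The ligands were hardly detected. *Ifng*, which encodes interferon-γ, had no read under NL and 0 to 1 reads per LD retina, *Ifnb1* had none under NL and 0 to 3 after LD, *Ifnl2* had 0 to 1 reads under NL and none after LD, and *Ifnl3* had none. At this depth a difference in these ligands was not detectable. Of the receptor genes, *Ifnar2* (log2 fold change 1.12, limma adjusted p = 4.41e-04) and *Ifnlr1* (1.34, adjusted p = 0.00374) were higher, while *Ifngr1* (-0.09), *Ifngr2* (0.44), *Ifnar1* (0.08) and *Il10rb* (0.87) were not called. The kinase genes *Jak1*, *Jak2* and *Tyk2* were not called, with values of -0.07 to 0.11.

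Several transcription factors of this pathway were among the genes that rose. *Irf1*, a direct activator of GBP promoters, increased from 1.34 ± 0.156 to 17.0 ± 5.16 FPKM (SD, n = 5 each; log2 fold change 3.52, limma adjusted p = 8.29e-07). *Stat2* (2.06), *Irf8* (3.24), *Irf9* (2.89), *Batf2* (2.30) and *Nlrc5* (5.49), the activator of MHC class I genes, were also called higher, whereas *Irf2* (0.74) was not called. The brakes *Usp18* (5.08), *Socs3* (4.46) and *Socs1* (3.10), which limit signalling by interferon receptors, rose as well, while *Pias1* (-0.53) and *Ptpn2* (0.27) were not called.

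The immunity-related GTPases, a second family of interferon-induced GTPases that act on the same vacuoles as GBPs, were called higher for 7 of the 7 tested, with a median log2 fold change of 4.54. *Iigp1* (4.90), *Irgm2* (4.75), *Irgm1* (4.68) and *Igtp* (4.54) were the highest. Only *Irgm1*, *Irgm2* and *Igtp* passed the filter with the NL retinas alone, and the other 4, *Iigp1* among them, passed it through the LD retinas, so that the count and the median of this list partly follow from the filter. Of the inflammasome genes, 6 of the 10 tested were higher, with a median of 1.09, led by the caspase genes *Casp1* (3.28), *Casp8* (2.36) and *Casp4* (1.85), the last encoding the sensor of cytosolic lipopolysaccharide, and by *Ninj1* (1.21), whose product ruptures the plasma membrane of dying cells. *Il18* (0.09), the most abundant of those not called, is a substrate of caspase-1. *Casp4*, *Nlrp3* and *Il1b* (0.76, not called) passed the filter only with the LD retinas. Of the 7 genes that passed it with the NL retinas alone, 4 were higher.

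In 3 further lists tied to GBP function no gene was called, which for lists of 12, 6 and 3 genes is near the background of 6.51%, and 38.2% of all genes tested had an unadjusted p under 0.05. The ATG8-like modifiers and the proteins that attach them to membranes, a system that helps GBPs reach vacuoles, had a median log2 fold change of -0.02, with 0 of 12 genes called by limma or limma-voom and 5 at an unadjusted p under 0.05. *Gabarapl1*, the most abundant of them, was at -0.17. Under the 2-fold limit, *Gabarap* was at 0.70 (limma, adjusted p = 8.93e-04) and *Atg12* at -0.29 (adjusted p = 0.00301). The enzymes that add and trim the lipid anchor of GBPs had a median of -0.16, with 0 of 6 called by either tool and 4 at an unadjusted p under 0.05, and *Icmt*, the most abundant, was at -0.47. Of the atlastins, GTPases of the endoplasmic reticulum from the same superfamily, 0 of 3 were called by either tool, 1 had an unadjusted p under 0.05, and *Atl2*, the most abundant, was at -0.22.

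**Figure D5:**
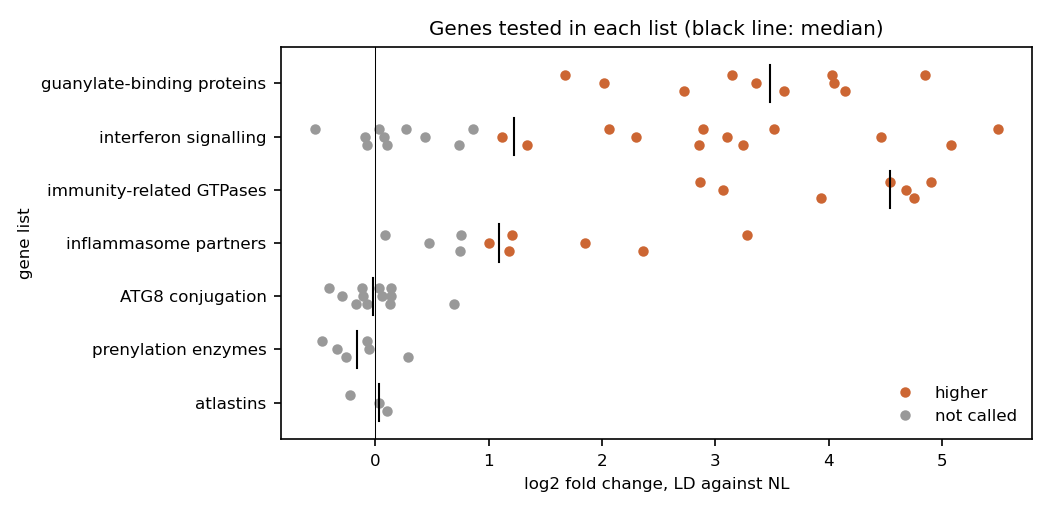
Log2 fold change, LD against NL, of every tested gene in the GBP family and in the lists of related genes, with 1 point per gene, orange where called higher and grey where not called, and a black line at the median of each list. The 10 GBP genes and the 7 immunity-related GTPases all lie above 1, a 2-fold change, while no gene of the ATG8, prenylation and atlastin lists does.

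Among markers of cell types known to express GBPs, only the microglia list and the monocyte and macrophage list held genes called higher. Of the microglia markers 5 of 8 were higher, and their summed level ranged from 19.0 to 25.3 FPKM under NL and from 26.6 to 60.7 FPKM after LD. *P2ry12*, *Tmem119* and *Csf1r* were not called, with log2 fold changes of -0.74, 0.22 and 0.74. Of the 8 monocyte and macrophage markers 3 were tested and all 3 were higher, of which *Plac8* passed the filter only through the LD retinas, with summed levels of 2.26 to 5.05 and 13.3 to 22.0 FPKM, and *Ly6c2* had no read under NL and 4 to 17 reads after LD. T and NK cell markers summed to 0.228 to 0.349 and 0.172 to 0.474 FPKM, and *Cd4*, the 1 gene of 8 that was tested, was not called by limma or limma-voom and had an unadjusted p above 0.05. The endothelial markers summed to 40.1 to 49.6 and 55.6 to 92.2 FPKM, with 0 of 8 called by either tool and 3 at an unadjusted p under 0.05. Of the 8 markers of Müller glia, 1, *Glul*, was called lower, and their sums were 1116 to 1350 and 542 to 757 FPKM. Markers of the retinal pigment epithelium summed to 197 to 248 and 131 to 237 FPKM, with 0 of 8 called by either tool and 4 at an unadjusted p under 0.05. *Rlbp1* (log2 fold change -0.52) was counted in both this list and that of Müller glia. It was the largest part of the pigment epithelium sum in both groups. These sums follow their abundant genes and do not measure cell numbers. *Glul* was at -2.09 but *Dkk3*, the next most abundant Müller glia marker under NL, at -0.02. Of the endothelial markers, *Kdr*, the most abundant, was at 0.70 and *Pecam1* at 0.06. The part of any of these cell types in the rise of the GBP genes was not tested.

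The genes whose levels followed those of the 10 members most closely were *Irf9*, *Lamp2*, *Ctsc*, *Il6st* and *Junb*, with a Pearson r of 0.999 to 0.996 over the 10 retinas between their log2 levels and the mean standardised log2 level of the members. *Irf9*, the DNA-binding subunit of the factor that recognises the ISRE, had a mean of 4.78 ± 0.675 FPKM (SD, n = 5) under NL that became 36.0 ± 3.60 FPKM after LD. *Lamp2*, a protein of the lysosomal membrane, was at 9.10 ± 0.445 and 22.1 ± 0.353 FPKM, and *Ctsc*, a lysosomal protease, at 2.12 ± 0.373 and 10.4 ± 1.01 FPKM. *Il6st*, the shared receptor subunit of the interleukin-6 family, was at 15.5 ± 0.862 and 31.0 ± 1.52 FPKM, and *Junb*, a transcription factor of the AP-1 family, at 12.4 ± 0.664 and 87.2 ± 15.7 FPKM. These values mostly describe the difference between the groups, which all 10 points share, and 491 of the 12681 genes compared had an r above 0.95.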

How the data were processed

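RNA-seq was done by the authors on 5 NL and 5 LD neural retinas, grouped here by the sample labels. RNA was extracted with TRIzol, libraries were made with a TruSeq kit and sequenced as paired reads of 150 bases, and normalization was left to a company. The processing notes name Bowtie2 2.0.6, TopHat2 2.0.9 and the build mm8, while the gene positions in the table are on GRCm38, where 53585 of the 54532 genes have the position of GENCODE release M21. The program that counted reads is not given in the sources used here. Because the kit and the counting are not stated to use strand, antisense reads cannot be told apart.

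The authors deposited FPKM values for each gene and retina. Multiplied by gene length, 100% of the values were whole numbers of reads (within 0.1) once divided by the smallest step of their retina, which gave back the reads, 18965090 to 26832535 per retina. The library size used by the authors was the sum of reads times a factor of 0.951 to 0.968 in NL and 1.04 to 1.07 in LD retinas, which lowers LD values and raises NL values relative to a plain total. Intervals cover counting error only.

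From these values log2(FPKM + 0.1) was compared, LD minus NL, with limma 3.58.1 (R 4.3.3; intensity trend, no block) over the 24508 genes that reached 0.1 FPKM in 5 or more retinas, with Benjamini-Hochberg adjustment over all of them. The added 0.1 makes changes of weakly expressed genes look smaller. Calls required an adjusted p below 0.01 and more than a 2-fold change. The study's text gives this threshold and names no test. The fit was tested on simulated data. Each member was compared in an exact two-sided permutation test as well (scipy 1.17.1, numpy 2.4.6, pandas 2.3.3 and Python 3.11.15), and figures were drawn with matplotlib 3.10.9. The study calls the retinas of a group biological replicates, and no label ties a retina to a mouse. The p-values treat the retinas as independent samples, which the labels cannot establish. If some retinas shared a mouse, the p-values could be too small.

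The members and the gene lists were chosen with earlier results of these data known. All members were named, and of each list the ligands, receptors and transcription factors, otherwise up to 4 called genes with the largest change and the most abundant gene not called. Some genes of the lists are not reported here. The 5 genes most like the members were the protein-coding genes with the highest r among those whose mean reached 1 FPKM under NL or after LD. Alternatives changed the pseudocount, filter, scaling, trend, test, threshold, block and retinas included. The splits by *Xist* and its interaction were chosen after seeing the data. Of the immunity-related GTPases listed, 8 of 10 names had a row.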

Additional observations from a re-analysis of the deposited data

Results flagged for a closer look

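*Gbp2b* was at 0.0166 FPKM in NL-1, a single read, and at 0 in the other NL retinas. With all other values at 0, any single read gives this flag, so it does not set NL-1 apart. Of the 20 groups of 5 values examined, 2 for each member, this was the 1 group flagged. The chance rate of about 1 in 20 does not hold for values at the limit of detection.

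*Gbp11*, which lies beside *Gbp6* and is not among the members, had a mean of 1.42 FPKM after LD and 4 reads in all NL retinas together. Its log2 fold change was 3.74 ± 0.17 (SE; limma, adjusted p = 1.99e-07), and the ratio of its scaled reads was 104 with an exact 95% interval of 40.5 to 385. Its annotation as a polymorphic pseudogene does not say whether the BALB/c copy encodes a protein.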

How the results depend on the processing

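Over 26 alternatives, 247 of 257 member values kept their direction and call, 10 lost the call and 0 reversed, and leaving out each retina in turn left all 10 members called, as did averaging the 3 closest pairs of retinas (1076 genes called over the whole table). With a pseudocount of 1, 7 members were called: *Gbp2b* (0.41), *Gbp8* (0.30) and *Gbp6* (1.00) fell below 2-fold. With a filter at 1 FPKM in 5 retinas, 7 members could be tested and all 7 were called. None of them reached 1 FPKM in all NL retinas. They passed this filter through the LD retinas and so were bound to be higher there. In the 4 retinas with *Xist* 5 members were called, *Gbp2b*, *Gbp5*, *Gbp6*, *Gbp8* and *Gbp9* having an adjusted p of 0.0110 to 0.0517, with fewer samples. Genes called over the whole table were 1595, against 816 with a pseudocount of 1, 942 and 927 in the retinas with and without *Xist*, and 6818 at an adjusted p under 0.05 without a minimum fold. Under that last threshold 38 genes of the pathway lists were called, against 25. Without the factor per retina the median of all genes moved from -0.01 to 0.11.

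The replicate numbers 1, 4, 7 and 8 occur in both groups. With the replicate block over these 8 retinas, 8 members and 808 genes were called, against 10 members and 1182 genes in the same retinas without it. *Gbp2b* (log2 fold change 2.07, adjusted p = 0.0144) and *Gbp8* (1.63, adjusted p = 0.0101) lost the call. The correlations of deviations of same-numbered retinas were -0.09 to 0.07, and 1 of the 4 numbers matched best with its own. With only 4 numbers, these values cannot decide whether same-numbered retinas share more than the number.

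Depth limits *Gbp2b* and *Gbp8* under NL, where 0 to 2 reads were recovered per retina, and the interferon ligands in both groups.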
